A study of Schmidtea mediterranea with 8 samples.

Results

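CHD4 (SMED30024368) and p53 (SMED30026364) are regulators of planarian stem cell descendants, and their RNA levels were followed in sorted cells of the freshwater flatworm Schmidtea mediterranea. Both rows were taken by identifier, and they are 2 of the 17882 transcripts in the table. CHD4 is the ATPase motor of the NuRD complex, an assembly that slides nucleosomes and removes acetyl groups from histones, and it is best known for keeping unwanted transcription programs closed. p53 is a DNA-binding transcription factor that, in mammals, is stabilised when DNA is damaged and then halts the cell cycle or triggers cell death. Planarians replace all of their tissues from dividing cells called neoblasts, and both genes are known there for their requirement in the passage from neoblasts to post-mitotic epidermal progeny.

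Cells of adult worms were stained with the DNA dye Hoechst and separated by flow cytometry. The X1 fraction holds dividing neoblasts and the Xins fraction holds cells that withstand irradiation, most of them post-mitotic. Polyadenylated RNA was sequenced from 4 X1 libraries and 4 Xins libraries. No treatment or knockdown distinguishes the groups, which differ only in the gate, and the study's methods describe its animals as the CIW4 asexual strain. How many animals or sorts stand behind each replicate is not given in the sources used here, so p-values measure the spread between these libraries, which may be technical.

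Values are RPKM, reads per kilobase of transcript scaled to the size of the library, so that levels of CHD4 and p53 can be set against each other. Whole reads recovered from the RPKM values came to between 14323705 and 15523242 per library. The gate was set beside marker transcripts. These were chosen as typical of their own fraction, with earlier results of these data known, so they are no independent check. All 9 X1 markers (2 Piwi transcripts, PCNA and MCM2 to MCM7) were higher in X1, where their summed level was 4566 to 5100 RPKM against 231.9 to 424.1 RPKM in Xins. All 5 epidermal progeny markers (AGAT-1, zpuf-6, egr-5, vim-3 and odc-1) were higher in Xins, with sums of 7.71 to 25.7 RPKM in X1 and 1304 to 1518 RPKM in Xins. None of these markers was at 0 in any library. Of all 15563 transcripts tested with limma, 35.5% were called higher in X1 and 41.7% higher in Xins (adjusted p under 0.05).

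CHD4 was the scarcer transcript and lay higher in the dividing cells. In X1 it stood at 25.3 RPKM in replicate 1, 27.1 in replicate 2, 25.3 in replicate 3 and 23.8 in replicate 4. In Xins it stood at 6.57, 8.71, 9.05 and 12.3 RPKM in replicates 1 to 4. The fractions did not overlap, and the highest Xins library (replicate 4) remained well under the lowest X1 library (replicate 4). The means were 25.4 ± 1.34 RPKM for X1 and 9.17 ± 2.38 for Xins (SD, n = 4 each), which puts Xins at 36.1% of X1.

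On the log2(RPKM + 1) scale CHD4 was higher in X1 by 1.40, with a 95% interval from 1.03 to 1.78 (SE 0.17, limma, Benjamini-Hochberg adjusted p = 1.08e-05 over 15563 transcripts). An exact two-sided permutation test gave p = 0.0286, the smallest value that 4 against 4 libraries can reach. Most transcripts separated these fractions: 77.2% of those tested passed an adjusted p of 0.05, 35.5% in the direction of X1 and 41.7% in the direction of Xins, and 71.2% showed no overlap. Passing the threshold therefore does not set CHD4 apart. In absolute size 60.5% of tested transcripts differed by less, and on the signed scale 86.1% lay lower than CHD4. Like CHD4, 22.0% were called higher in X1 by more than 1 on the log2 scale. The median of all tested transcripts was -0.11, so that CHD4 lay 1.52 above it. In bulk RNA of sorted cells, fewer cells with a transcript and less of it per cell cannot be told apart.

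p53 was abundant in both fractions and leaned the other way. Its X1 libraries held 116.4, 144.7, 140.1 and 162.6 RPKM in replicates 1 to 4. Its Xins libraries held 206.0, 157.9, 265.5 and 219.7 RPKM. Xins replicate 2 fell below X1 replicate 4, and these were the only libraries whose order crossed the fractions. Mean p53 was 140.9 ± 19.0 RPKM for X1 and 212.3 ± 44.3 RPKM for Xins (SD, n = 4 each), a ratio of 1.51.

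The limma difference for p53, X1 minus Xins, was -0.57 on the log2(RPKM + 1) scale, with a 95% interval from -0.94 to -0.20 (SE 0.17, adjusted p = 0.00818). The exact two-sided permutation test on the same values missed the threshold at p = 0.0571. Relative to the median of all transcripts the difference was -0.46. It was a small shift among these fractions, since only 28.0% of tested transcripts differed by less in absolute size, and 39.5% lay lower than p53 on the signed scale. The crossing of the 2 libraries depended on the scaling built into RPKM. Expressed as recovered reads over the summed reads of the library (RPM), p53 ran from 243.9 to 274.0 in X1 and from 355.9 to 556.5 in Xins, with no overlap. The library size inside RPKM was 0.823 times the recovered reads in X1 replicate 4, the lowest of the 8 libraries, and 1.02 to 1.15 times in Xins.

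**Figure D1:**
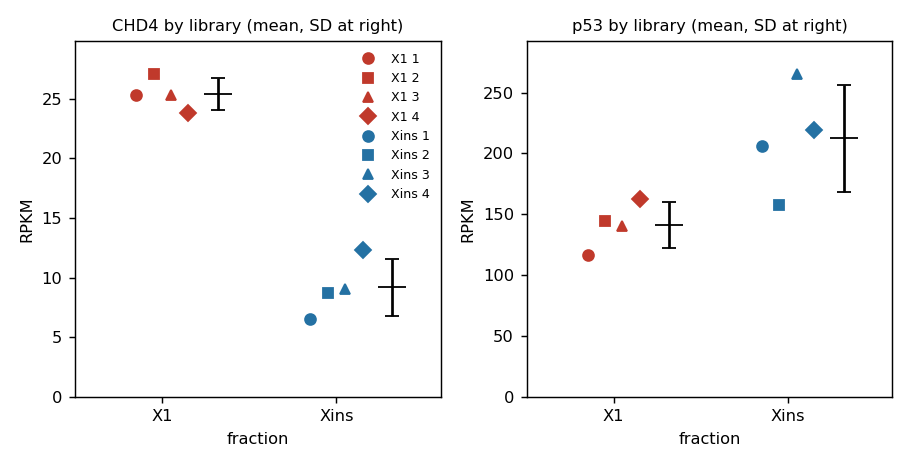
RPKM of CHD4 (left) and p53 (right) in each library, by fraction; red symbols are X1, blue symbols are Xins, the symbol shape gives the replicate, and the bar at the right of each group is the mean with its SD (n = 4). CHD4 is at 23.8 RPKM or more in X1 and at 12.3 or less in Xins, while the p53 groups cross at X1 replicate 4 (162.6) and Xins replicate 2 (157.9).

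Counting error was small beside the spread between libraries. CHD4 rested on 9924 reads in X1 and 4315 in Xins over a recovered transcript length of 7237 nucleotides, and p53 on 15398 and 28265 reads over 2047 nucleotides. The lowest CHD4 value, 6.57 RPKM in Xins replicate 1, came from 795 reads and has an exact 95% Poisson interval of 6.12 to 7.04 RPKM, which covers counting error only. The coefficient of variation of CHD4 was 5.26% in X1 and 26.0% in Xins, against 2.01% and 3.04% from counting alone. For p53 it was 13.5% and 20.9%, against 1.61% and 1.19%. Both genes thus varied more among Xins libraries than among X1 libraries, by a factor of 1.88 from lowest to highest for CHD4 and 1.68 for p53 in Xins, compared with 1.14 and 1.40 in X1. Whether the spread itself differed between fractions was not tested.

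Some of the libraries in which CHD4 was lowest or highest within a fraction were also apart for other long transcripts, and some were not. Among 335 tested transcripts with a recovered length from 5000 up to 10000 nucleotides, the median deviation from the fraction's mean, on the log2(RPKM + 1) scale, was lowest for X1 in replicate 4 (-0.12) and highest for Xins in replicate 4 (0.24). CHD4 deviated by -0.09 and 0.42 in those libraries. In Xins replicate 1, where CHD4 deviated by -0.40, the long transcripts had a median deviation of -0.10, but it was also -0.10 in Xins replicate 3, where CHD4 deviated by 0.01. In X1 the long transcripts were highest in replicate 1 (0.08), whereas CHD4 was highest in replicate 2 (0.09), where their median deviation was 0.0064. Between fractions, transcripts of this length had a median difference of -0.15, and CHD4 was above 88.7% of them. The part of transcript length in the replicate spread was not tested. Without Xins replicate 4 the CHD4 difference was 1.54, and without Xins replicate 1 it was 1.27. For the 4686 transcripts of 1500 up to 3000 nucleotides, the size class of p53, no library's median deviated by more than 0.08 in either direction, while p53 deviated by -0.40 in Xins replicate 2 and 0.35 in Xins replicate 3.

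The ratio of both genes within a library does not depend on how libraries are scaled. p53 exceeded CHD4 in all 8 libraries. In X1 there was 4.59 times as much p53 as CHD4 in replicate 1, 5.34 times in replicate 2, 5.54 times in replicate 3 and 6.82 times in replicate 4. In Xins the ratios were 31.4, 18.1, 29.3 and 17.8. The fractions were fully separated, and the Xins ratios fell into a higher pair (replicates 1 and 3) and a lower pair (replicates 2 and 4). The high ratio of replicate 1 went with the lowest CHD4 level in Xins and that of replicate 3 with the highest p53 level. Transcripts in the length class of CHD4 had median deviations of -0.10, -0.04, -0.10 and 0.24 in Xins replicates 1 to 4. In X1 replicates 1 to 4 these were 0.08, 0.0064, 0.02 and -0.12. CHD4 is much longer than p53, and the part of transcript length in the ratio was not tested. The mean log2 ratio of CHD4 to p53 was -2.46 ± 0.23 in X1 and -4.54 ± 0.44 in Xins (SD, n = 4 each). The balance thus moved by 2.08 log2 units, or 4.23-fold, toward CHD4 in X1 (exact two-sided permutation p = 0.0286, the smallest possible, Benjamini-Hochberg adjusted p = 0.0357 over 5 exact tests). Leaving out 1 library at a time kept the shift between 1.94 and 2.21. Both genes were chosen with earlier results of these data known, and the ratio reuses the values tested above. Its p-value is therefore not separate support for their opposite lean.

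Ranks within a library, taken from the same values, showed the same contrast with unequal reach. Ordered by mean RPKM from the top, CHD4 was transcript 4042 of 17882 in X1 and 7732 in Xins, and p53 was transcript 1010 in X1 and 646 in Xins. By library, CHD4 stood at percentiles 77.7, 78.8, 77.2 and 75.9 in X1 and at 49.6, 55.5, 57.3 and 63.7 in Xins, where 100 would be the most abundant transcript. CHD4 was therefore well above the middle of the table in each X1 library and close to it in Xins, where 1 library lay just below it. The means differed by 20.9 percentile points (exact two-sided permutation p = 0.0286, adjusted p = 0.0357).

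For p53 the percentiles were 94.0, 94.5, 94.4 and 94.5 in X1 and 96.5, 94.99, 96.8 and 96.6 in Xins. Here Xins replicate 2 lay above every X1 library, so that the ranks of p53 did not overlap although its RPKM did. The means differed by 1.88 points toward Xins (exact two-sided permutation p = 0.0286, adjusted p = 0.0357), and p53 was near the top of the table in all 8 libraries. From the top of the table downward, the order of the 4 group levels was p53 in Xins, p53 in X1, CHD4 in X1 and CHD4 in Xins. Of the neighbours in that order, both p53 levels overlapped in RPKM and the others did not. In a library the genes were 2821 to 3329 places apart in X1 and 5892 to 8400 places apart in Xins.

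**Figure D2:**
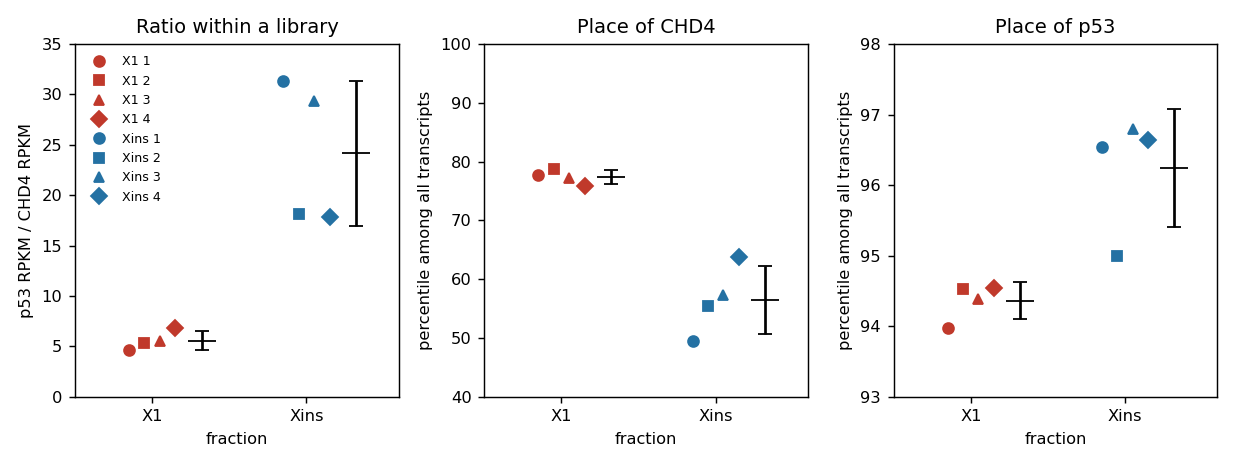
Left, RPKM of p53 divided by RPKM of CHD4 in each library; middle and right, the percentile of CHD4 and of p53 among all 17882 transcripts of a library, on axes that do not start at 0. Symbols and bars are as for the levels (mean and SD, n = 4), and in all 3 panels the X1 libraries lie entirely to one side of the Xins libraries: ratios of 4.59 to 6.82 against 17.8 to 31.4.

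Both genes kept far more of their level in the other fraction than the markers did. The markers were chosen as transcripts typical of their own fraction, so lying above them does not set CHD4 or p53 apart. In absolute size, 60.5% of tested transcripts differed by less than CHD4 and 28.0% by less than p53. In Xins, CHD4 was at 25.9%, 34.3%, 35.6% and 48.6% of its mean X1 level in replicates 1 to 4. The median of the 9 X1 markers was at 1.23%, 2.34%, 3.67% and 2.19% in the same libraries. The marker that was kept most was the transcript for Piwi-like protein 2, an Argonaute-family protein of neoblasts, at 14.3% to 26.4%, and CHD4 lay above it in each Xins library. Piwi-like protein 1, a standard neoblast marker, had 2104 ± 157 RPKM in X1 against 53.1 ± 22.9 RPKM in Xins. Among Xins libraries it was highest in replicate 3 (86.9 RPKM), and CHD4 was highest in replicate 4. The part of neoblasts in the Xins value of CHD4 was not tested. The largest marker differences were those of the MCM7 (5.44), MCM4 (5.39) and Piwi-like protein 1 (5.36) transcripts on the log2(RPKM + 1) scale, and the smallest was that of Piwi-like protein 2 (2.33), all above the 1.40 of CHD4.

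In X1, p53 was at 54.8%, 68.2%, 66.0% and 76.6% of its mean Xins level in replicates 1 to 4. The 5 epidermal progeny markers had medians of 0.629%, 0.690%, 1.69% and 3.12% there. Their highest member was always vim-3, an intermediate filament transcript, at 4.26% to 24.2%, under p53 in each library. AGAT-1, an amidinotransferase of late progeny, differed by -7.39, zpuf-6 by -6.07, odc-1, an ornithine decarboxylase, by -5.05 and vim-3 by -1.66, each larger in size than the -0.57 of p53. In RPKM, the p53 and progeny marker levels were both highest for X1 in replicate 4, where the markers summed to 25.7 RPKM. As RPM, p53 was at 274.0 in that library and at 271.8 in X1 replicate 2, which had the lowest marker sum (7.71 RPKM). The part of progeny cells in the X1 value of p53 was not tested.

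**Figure D3:**
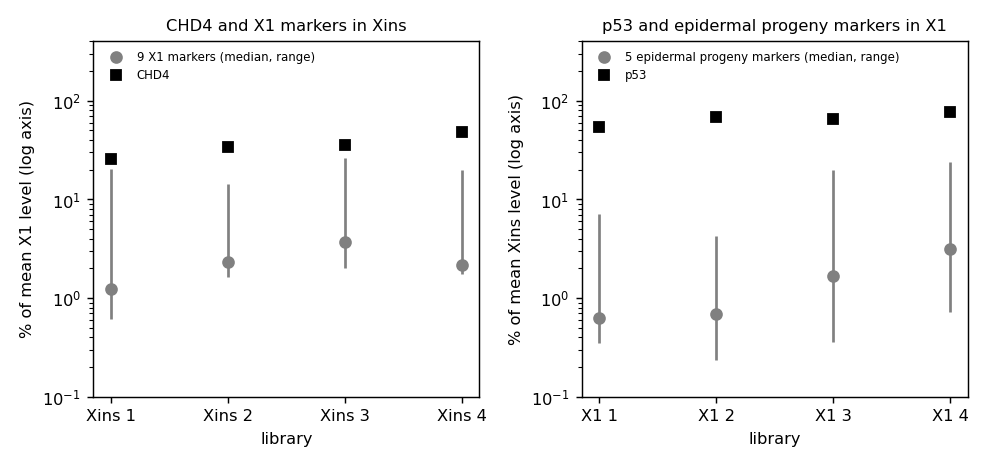
Left, CHD4 (black squares) and the 9 X1 markers (grey, median and range) in each Xins library as a percentage of their mean X1 level; right, p53 and the 5 epidermal progeny markers in each X1 library as a percentage of their mean Xins level, both on log axes. CHD4 (25.9% to 48.6%) and p53 (54.8% to 76.6%) lie above the highest marker in every library.

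Next, CHD4 was compared with other parts of its complex. In the study's tables, 5 further transcripts have a best protein hit to a NuRD subunit. These tables list transcripts changed by chd4 or p53 RNAi in whole worms, so the set is not a complete NuRD inventory, and the hits are named by similarity only. All 5 were higher in X1, each with no overlap between the fractions. Over all tested transcripts, 35.5% were higher in X1 and 71.2% showed no overlap in either direction. The 5 hits had a median log2 difference of 1.65, against -0.11 for all tested transcripts. Since 4 of the 5 come from the transcripts lowered in p53 RNAi only, it should be read against that source: of its 431 tested transcripts with a protein hit, 81.4% were higher in X1. RBBP4 hit A comes from those lowered in both conditions, where that share was 20.1%.

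The hit to HDAC1, the deacetylase that supplies the second enzymatic activity of NuRD, was the most abundant. It had 1471, 1761, 1693 and 2172 RPKM in X1, then 598.2, 517.3, 795.8 and 629.1 RPKM in Xins, a difference of 1.48 (SE 0.18, limma adjusted p = 7.51e-06). The hit to MBD3, a methyl-CpG-binding-domain subunit that holds the complex together, had 109.8, 127.6, 131.8 and 169.6 RPKM in X1, then 36.1, 36.9, 58.3 and 39.7 RPKM in Xins, a difference of 1.64 (SE 0.18, limma adjusted p = 3.97e-06). Their X1 levels were highest in replicate 4, the X1 library in which CHD4 was lowest.

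Of the histone-binding WD-repeat subunits, which also serve in other chromatin complexes, RBBP4 hit B (SMED30028689) was at 455.7 ± 69.0 RPKM in X1, against 143.7 ± 15.7 RPKM in Xins, and differed by 1.65 on the log2 scale. RBBP4 hit A (SMED30022238) was at 164.2 ± 26.8 and 18.2 ± 5.45 RPKM and differed by 3.13. The hit to the fly homologue Caf1 (SMED30000072) was at 110.7 ± 12.4 and 3.17 ± 1.67 RPKM and differed by 4.83 (n = 4 each; SE 0.14, 0.19 and 0.25). The 3 transcripts are related, and reads shared between near-identical stretches could have been assigned to either.

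Set against CHD4 in the same library, the NuRD hits split. Per CHD4, HDAC1 hit RPKM ran from 58.0 to 91.1 in X1 and from 51.0 to 91.1 in Xins, and the log2 ratio differed by -0.02 between fractions (exact two-sided permutation p = 0.943). MBD3 hit RPKM ran from 4.33 to 7.12 times that of CHD4 in X1 and 3.21 to 6.44 times in Xins (difference of 0.16, exact p = 0.6). RBBP4 hit B ran from 15.2 to 23.0 times and from 11.9 to 20.2 times (difference of 0.16, exact p = 0.486). The ranges of all 3 hits overlapped between fractions, almost throughout for HDAC1 and in part for MBD3 and RBBP4 hit B, and a p that misses the threshold does not show equal ratios. RBBP4 hit A, at 5.40 to 8.32 times CHD4 in X1, was at 1.17 to 2.87 times in Xins, a shift of 1.70. The Caf1 hit, at 4.00 to 5.40 times CHD4 in X1, was at 0.193 to 0.590 times in Xins, a shift of 3.79. Both had no overlap between fractions and the smallest possible exact p of 0.0286, which became 0.0714 after adjustment over the 5 ratios and did not pass. These ratios were chosen after the levels had been seen.

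**Figure D4:**
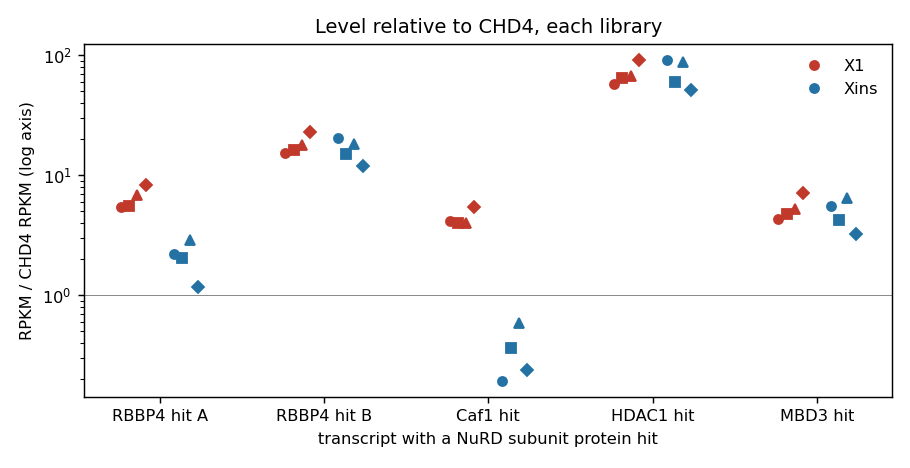
RPKM of each transcript with a NuRD subunit hit divided by the RPKM of CHD4 in the same library, on a log axis; red symbols are the 4 X1 libraries, blue symbols the 4 Xins libraries, with symbol shapes for replicates. The HDAC1, MBD3 and RBBP4 B hits overlap between fractions, whereas the RBBP4 A and Caf1 hits are lower relative to CHD4 in Xins, the Caf1 hit falling from at least 4.00 to at most 0.590.

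Other chromatin regulators in the same tables leaned to X1 as CHD4 did, and by more. All 9 hits were higher in X1, with a median difference of 2.05 and a range from 1.54 to 3.96, every one above CHD4. The largest were NSD2, a histone methyltransferase, with 46.7 ± 4.90 RPKM in X1 and 2.10 ± 0.685 RPKM in Xins, CHD1L, a remodelling ATPase related to CHD4 (difference of 3.39), and CBX1, a heterochromatin protein (difference of 3.32). The smallest was that of E(z), the catalytic subunit of Polycomb repressive complex PRC2, at 54.5 ± 3.48 and 18.1 ± 1.53 RPKM (SD, n = 4 each). Over all tested transcripts, 35.5% were higher in X1. Again 7 of the 9 come from the transcripts lowered in p53 RNAi only, where 81.4% of those with a hit were higher in X1. The remaining 2 come from those lowered in chd4 RNAi only, of which 18.6% of 382 tested transcripts with a hit were higher in X1. Since most of the 9 share the direction of their source, nothing particular to chromatin regulators can be read from the count.

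Transcripts of the DNA damage response were higher in X1, the side on which p53 was lower. In mammals, DNA damage reaches p53 through sensor complexes and kinases. All 17 hits to DNA damage and repair proteins followed here were higher in X1, each without overlap. Of all tested transcripts, 35.5% were higher in X1 and 71.2% showed no overlap in either direction. The 17 hits had a median log2 difference of 3.79, against -0.57 for p53. The largest differences were those of the hits to CHK1, a checkpoint kinase (4.70, from 80.1 ± 8.22 RPKM in X1 to 2.19 ± 0.831 RPKM in Xins), to EXO1, an end-resecting nuclease (4.64, from 43.7 ± 1.17 to 0.844 ± 0.494 RPKM) and to RNF8, a ubiquitin ligase that acts at DNA breaks (4.48, from 85.6 ± 4.78 to 3.09 ± 1.61 RPKM). The smallest was that of ERCC6, of transcription-coupled repair (1.89). ATM, which in mammals phosphorylates p53 and is named here after its values were seen, was scarce, with 4.63 ± 0.409 RPKM in X1 against 0.403 ± 0.137 RPKM in Xins (difference of 2.01). In Xins, p53 was above each of the 17, whose highest mean there was that of ERCC1 at 31.5 ± 6.74 RPKM. All 17 come from the transcripts lowered in p53 RNAi only, where 81.4% were higher in X1, so nothing particular to these proteins can be read from the count.

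Transcripts related to cell death, the other process p53 is known for in mammals, were divided among the 3 hits followed. API5, an inhibitor of apoptosis, was higher in X1 with no overlap between fractions, with 188.9 ± 30.9 RPKM in X1 against 48.4 ± 7.38 RPKM in Xins (difference of 1.94, limma adjusted p = 3.14e-07). Of all tested transcripts, 35.5% were higher in X1 and 71.2% showed no overlap in either direction. API5 comes from the transcripts lowered in p53 RNAi only, where 81.4% of those with a hit were higher in X1. Its direction is thus that of most of its source. The other 2 hits did not pass. BAK, a pore-forming effector and p53 target in mammals, had 204.5 ± 36.4 RPKM in X1, 187.8 ± 34.1 RPKM in Xins and a difference of 0.12 (limma adjusted p = 0.522) that changed sign under some scalings. FAIM1, an inhibitor of death receptor signals, was at 1.47 ± 1.04 and 0.664 ± 0.312 RPKM (difference of 0.50, limma adjusted p = 0.105), and it passed toward X1 without X1 replicate 2 (0.67) and after quantile normalization (1.26).

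**Figure D5:**
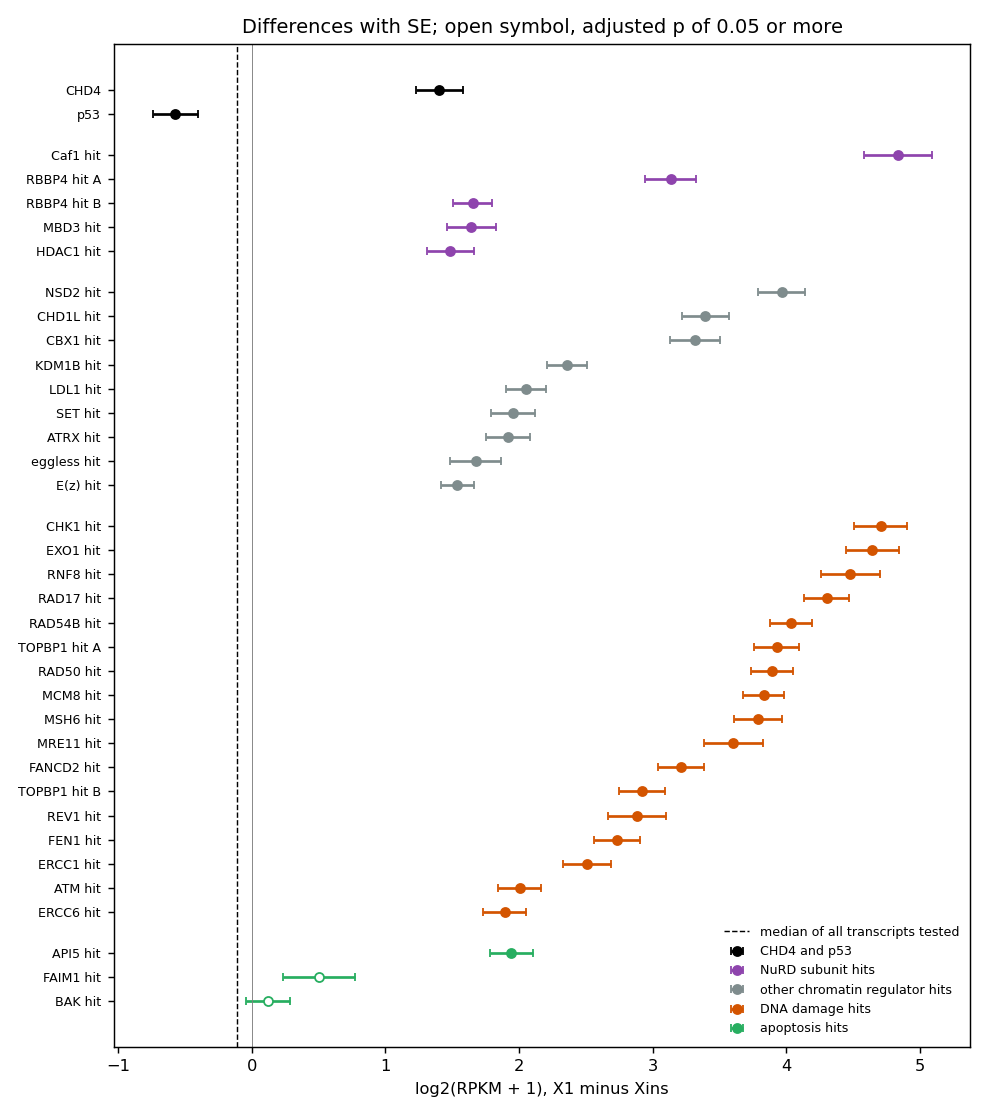
Log2(RPKM + 1) difference, X1 minus Xins, of CHD4, p53 and the hits of 4 lists, with SE bars from limma; filled symbols passed an adjusted p of 0.05, open symbols did not, and the dashed line is the median of all tested transcripts (-0.11). p53, at -0.57, is the only filled symbol on the Xins side, to which 41.7% of all tested transcripts were called. The 17 DNA damage hits run from 1.89 to 4.70. Most hits shown come from transcripts lowered in p53 RNAi only, where 81.4% of those with a protein hit were higher in X1.

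Finally, the transcripts whose profile over the 8 libraries was most like that of each gene were listed, among tested transcripts with a protein hit in the study's tables. Likeness was the Euclidean distance between log2(RPKM + 1) values centred on each transcript's own mean, whose median to CHD4 was 2.49 and to p53 was 2.02 over all tested transcripts. Of the 5 nearest to CHD4, 4 are given here, at distances of 0.342 to 0.405: the hits to heat shock cognate 71 kDa protein, the Clustered mitochondria protein, the RNA-binding protein MEX3B and La-related protein 1B. Their X1 means ran from 72.2 to 343.4 RPKM and their differences from 1.30 to 1.56. The 5 nearest to p53, at 0.296 to 0.493, were hits to NADH-cytochrome b5 reductase 3, the zinc transporter SLC39A7, stromal cell-derived factor 2-like protein 1, 17-beta-hydroxysteroid dehydrogenase 13 and phospholipase D3. Their differences ran from -0.85 to -0.39, with X1 means from 14.0 to 364.0 RPKM. Many transcripts lay close to either profile, 1831 within a distance of 1 of CHD4 and 1638 within 1 of p53, so neither pattern was particular to its gene.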

How the data were processed

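RNA of 4 X1 and 4 Xins sorted samples was sequenced from TruSeq libraries. The authors deposited 1 table of RPKM values for 17882 transcripts. The submitters' processing notes name CASAVA 1.8.2, Bowtie and edgeR. The role of each, the transcript set, the filters and a genome build are, for sorted cells, not given in the sources used here. Whole reads were recovered from the steps of the RPKM values: 100% of rows came out whole in all 8 libraries, within 0.001 of a read. The library sizes inside RPKM were 0.823 to 1.15 times the recovered reads, so the deposited values carry a scaling between libraries. A row whose reads share a divisor has its reads and length recovered only to the smallest solution.

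The 15563 transcripts averaging 1 RPKM or more were analysed as log2(RPKM + 1), and limma 3.58.1 (R 4.3.3) was fitted with a mean-variance trend, two-sided, with p-values adjusted by Benjamini-Hochberg across all of them. A difference on this scale understates changes of low transcripts. The script was tested on simulated data. Percentiles, ratios without a pseudocount and exact permutation tests (all 70 arrangements, adjusted over 5) used Python 3.11.15 with scipy 1.17.1. Alternatives were other pseudocounts, filters and scalings, a replicate block, leaving out each library and, chosen after seeing the data, sizes from summed reads, limma-voom on recovered reads, length classes and ratios to NuRD hits.

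Named with values are CHD4, p53, the NuRD hits, in each other list the 3 largest differences and the smallest, and the 5 nearest profiles per gene; some items of these lists are not reported here, and exceptions are marked or are means at the edge of a range. CHD4, p53 and the lists were chosen with earlier results of these data known. Gene names come from the study's protein hits, and of the study's own comparisons only the direction lists of the RNAi tables were used, as a source of names and as a background.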

Additional observations from a re-analysis of the deposited data

Results flagged for a closer look

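For each measure and fraction, 106 groups of 4 libraries were examined for a single value far from the other 3, of which chance gives about 1 in 20. There were 9. For p53, the percentile in Xins replicate 2 was 94.99, with the other Xins libraries between 96.5 and 96.8; this is the library in which p53 also had its lowest Xins RPKM. For transcripts compared with CHD4 and p53, the isolated values were, in RPKM, the MBD3 hit in Xins replicate 3 (58.3, others 36.1 to 39.7), the eggless hit in Xins replicate 4 (9.62, others 5.96 to 6.21), the RAD50 hit in Xins replicate 1 (2.31, others 1.69 to 1.77) and the ERCC1 hit in Xins replicate 3 (41.6, others 28.06 to 28.14). Further ones were the TOPBP1 B hit in X1 replicate 3 (14.5, others 11.6 to 12.0), the REV1 hit in X1 replicate 1 (17.8, others 11.3 to 12.2), the MCM2 hit in Xins replicate 1 (0.538, others 2.12 to 2.35) and the MCM3 hit in X1 replicate 3 (162.6, others 118.0 to 124.7). CHD4 had no such value in either fraction.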

How the results depend on the processing

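CHD4 stayed higher in X1 under all 19 limma alternatives, from 1.12 to 1.59 with adjusted p from 7.46e-08 to 8.14e-05, and p53 stayed lower in X1, from -0.83 to -0.46 with adjusted p from 9.29e-05 to 0.0267. Relative to the median of all transcripts, CHD4 lay 1.18 to 1.64 above and p53 between -0.91 and -0.34. That median moved from -0.11 to 0.26 under quantile normalization and to -0.34 under library sizes from summed reads. The p53 call was lost only in the exact permutation test (-0.57, p = 0.0571). Leaving out single libraries gave 1.27 to 1.54 for CHD4, -0.71 to -0.46 for p53, 1.94 to 2.21 for their log2 ratio, and 18.6 to 23.3 and -2.30 to -1.70 percentile points for their ranks; with 3 against 4 libraries the exact test cannot pass, so those last values carry no test. Pseudocounts of 1 and 5 gave a log2 ratio of 1.98 and 1.67, and ranking among transcripts of at least 1 RPKM gave 24.0 and -2.16 points.

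The transcripts called higher in Xins numbered 6492, and 3708 with a minimum mean of 5 RPKM, where fewer transcripts are tested. Of all calls 46.0% were higher in X1, and 57.2% after quantile normalization (7027 and 5266). BAK turned to -0.073 with a common sum of RPKM and to -0.13 with summed reads. FAIM1 passed toward X1 after quantile normalization (1.26) and without X1 replicate 2 (0.67), so that the apoptosis hits higher in X1 ran from 1 to 2 over the libraries left out and were 2 after quantile normalization. The other named transcripts kept their side of the threshold in each alternative that could test them.

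Across transcripts, the deviations of same-numbered libraries correlated at 0.27, -0.19, -0.12 and -0.02 in replicates 1 to 4. Of the 4 X1 libraries only replicate 1 correlated best with its own number. The sample labels do not say whether equal numbers share a sort. These correlations cannot decide it, so pairing remains unknown. With a replicate block in limma CHD4 was at 1.40 (limma adjusted p = 8.14e-05), p53 at -0.57 (limma adjusted p = 0.011), and 5457 and 6454 transcripts were called; the ratio shift was 2.08 in a blocked exact sign-flip test (p = 0.125, the smallest that 4 pairs allow).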
